A study of Homo sapiens with 6 samples.

Results

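The genes examined here encode the kinase complexes that start autophagy. They are the ULK complex (ULK1, ULK2, ATG13, RB1CC1, ATG101) and the autophagy class III PI3-kinase complex (BECN1, PIK3C3, PIK3R4, ATG14, UVRAG). They were found by symbol in the deposited count table. Each of the 10 symbols had 1 row, out of 31762 genes in all, and all 10 passed the filter on low counts that left 15646 genes to test. The libraries came from H460, a human line grown from a large cell lung carcinoma and labelled WT, with 3 control libraries and 3 libraries of cells given 20 µM fluoxetine for 24 h. Fluoxetine is an antidepressant that blocks serotonin reuptake. The labels call the control group only control and name no vehicle. The groups are a single cell line, at 1 dose and 1 time. Nothing in the labels says whether the replicates were separate cultures, so p-values measure only the spread between these libraries, which may be technical. The comparison asks whether the transcripts of this machinery differed after the drug.

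In growing cells, mTOR complex activity holds the ULK complex back, and AMPK can activate it. The ULK complex then acts on the class III PI3-kinase, whose product, the lipid PI3P, marks the membrane where an autophagosome begins. ATG14 directs the PI3-kinase to autophagosome formation, whereas UVRAG takes its place in a second form of the complex that works on endosomes and autophagosome maturation. Much of this control is by phosphorylation, which RNA counts do not measure.

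The libraries held 16157507 to 27823667 counts, and every fluoxetine library was smaller than every control library. At this depth 3 counts, the limit that a count of 0 allows, were worth 0.108 to 0.182 CPM (counts scaled to one common library total), for counting error only. The lowest count of any of the 10 genes was 281, in ULK2. Of the epithelial markers, KRT8, KRT18 and KRT19 summed to nearly all of the list's 2689 to 4027 CPM, while EPCAM and CDH1 had at most 11 counts and 1 count in a library. The lung lineage markers (NKX2-1, SFTPB, SFTPC, SCGB1A1, NAPSA) reached at most 0.684 CPM in sum, so they were near 0 although the labelled tissue is lung. Leukocyte, fibroblast and endothelial lists summed to at most 2.39, 5.78 and 0.182 CPM. In bulk RNA, fewer cells with a transcript and less of it per cell cannot be told apart.

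Of the 10 genes, 4 were upregulated by fluoxetine at an adjusted p-value under 0.05 and 0 were downregulated, by edgeR's quasi-likelihood test. They were ULK1, ULK2 and RB1CC1 of the ULK complex, and UVRAG of the PI3-kinase complex. Across all tested genes 13.1% passed in either direction, 7.76% higher and 5.32% lower. No gene of the 10 reached a fold change of 2, against 1.39% of all tested genes that passed with it. At an unadjusted p-value under 0.05 the count was 7 of the 10, against 28.7% of all tested genes. The log2 fold changes (fluoxetine over control) of 8 genes were above 0, with a median of 0.31 over the 10, beside 0.03 over all tested genes. The groups did not overlap in 7 genes, all with the fluoxetine libraries on top. Among all tested genes 31.9% had groups that did not overlap, 17.5% with fluoxetine on top. The number upregulated was 1 without control replicate 2 or without fluoxetine replicate 1, 2 without control replicate 1 or without fluoxetine replicate 3, and 6 without control replicate 3. The number downregulated was 1, ATG101, without control replicate 3, without a filter on low counts or with the trends of transcript length and GC content removed. Over all genes those fits called 2006, 1516 and 2325 lower, in that order. With 1 library left out, the calls over all genes moved too, between 409 and 1627 genes higher and between 163 and 2006 lower, against 1214 and 833 with every library. Genes higher made up 59.3% of those calls, 48.8% with DESeq2, 47.9% without a filter on low counts and 40.6% with the trends of transcript length and GC content removed.

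**Figure D1:**
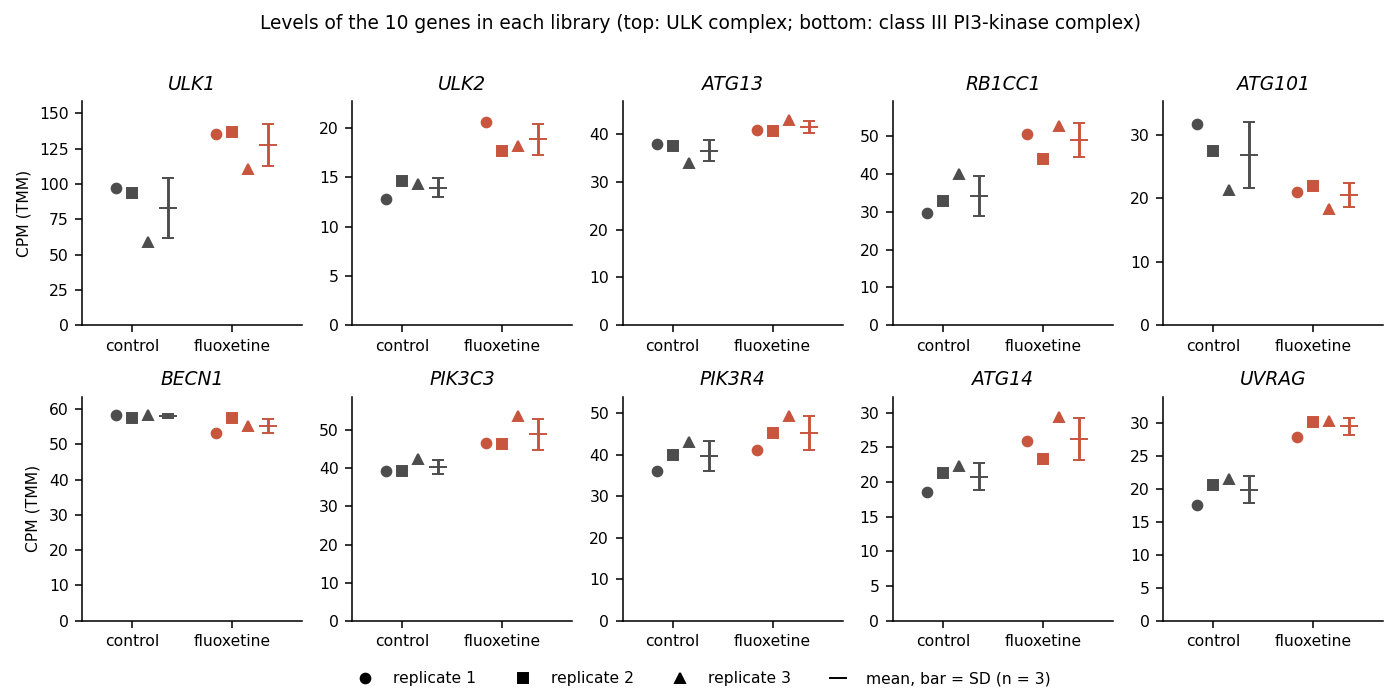
Level of each gene in CPM (vertical axes, from 0) in the 3 control and 3 fluoxetine libraries, with marker shapes for replicates and a bar for the mean and SD (n = 3). ULK1, ULK2, RB1CC1 and UVRAG stand higher in all fluoxetine libraries, ATG101, BECN1 and PIK3R4 overlap, and ULK1 is lowest in control replicate 3.

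ULK1 (ENSG00000177169, chromosome 12 from 131894651 to 131923167, plus strand, GRCh38) encodes the protein kinase that starts autophagy. Its level was 96.9, 93.5 and 58.6 CPM in control replicates 1, 2 and 3, and 135, 137 and 110.3 CPM in the fluoxetine replicates. The lowest fluoxetine library was above the highest control library, and within each group replicate 3 was the lowest. The means were 83.0 ± 21.2 CPM (SD, n = 3) and 128 ± 15.0 CPM (SD, n = 3), for a log2 fold change of 0.62 (SE, the standard error, 0.17, edgeR adjusted p = 0.0353), or 1.54-fold with a 95% interval of 1.19 to 1.99. Without control replicate 3 the log2 fold change was 0.39 (edgeR adjusted p = 0.0147). In edgeR the call was lost without control replicate 2 (adjusted p = 0.0846), fluoxetine replicate 1 (adjusted p = 0.170) or fluoxetine replicate 2 (adjusted p = 0.0909).

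ULK2 (ENSG00000083290, chromosome 17 from 19770829 to 19867936, minus strand) encodes the paralogous kinase, which can stand in for ULK1 in many cells. It was measured at 12.8, 14.6 and 14.4 CPM in control cells and at 20.6, 17.7 and 18.2 CPM after fluoxetine. The groups did not overlap. The log2 fold change was 0.43 (SE 0.11, edgeR adjusted p = 0.0313), 1.35-fold with a 95% interval of 1.14 to 1.61. In edgeR it fell short of the threshold without control replicate 1 (adjusted p = 0.140), control replicate 2 (adjusted p = 0.103), fluoxetine replicate 1 (adjusted p = 0.206) or fluoxetine replicate 3 (adjusted p = 0.0903). The log2 ratio of ULK2 to ULK1 counts within a library was -2.92, -2.67 and -2.03 in control libraries and -2.71, -2.95 and -2.60 in fluoxetine libraries. These ranges overlapped, the group means differed by -0.22, and the exact two-sided permutation test gave p = 0.6 (0.6 after adjustment over both ratios tested here), where 3 libraries against 3 cannot go below 0.1. Without control replicate 3 the difference turned to 0.040.

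RB1CC1 (ENSG00000023287, chromosome 8 from 52622456 to 52745843, minus strand) encodes FIP200, the large scaffold of the ULK complex. Control replicates 1, 2 and 3 held 29.6, 33.0 and 40.1 CPM, and fluoxetine replicates 50.6, 44.1 and 52.7 CPM. All fluoxetine libraries were above all control libraries, and replicate 3 was the highest in each group. The log2 fold change was 0.52 (SE 0.12, edgeR adjusted p = 0.0209), 1.43-fold with a 95% interval of 1.19 to 1.73. In edgeR the call was lost without control replicate 1 (adjusted p = 0.0860), control replicate 2 (adjusted p = 0.113), fluoxetine replicate 1 (adjusted p = 0.119) or fluoxetine replicate 3 (adjusted p = 0.0851). With the length and GC trends removed the log2 fold change was 0.35 (edgeR adjusted p = 0.00523).

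The adaptors of the ULK complex did not pass. ATG13 (ENSG00000175224, chromosome 11 from 46617527 to 46674818, plus strand) links the kinase to FIP200. It averaged 36.5 ± 2.21 CPM (SD, n = 3) without the drug and 41.5 ± 1.29 CPM (SD, n = 3) with fluoxetine. The groups did not overlap, yet the log2 fold change of 0.18 had a 95% interval of -0.01 to 0.38 (edgeR adjusted p = 0.199). ATG13 shares 329 exonic bases with HARBI1 on the other strand, which averaged 60.7 counts a library.

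ATG101 (ENSG00000123395, chromosome 12 from 52069246 to 52077494, plus strand) encodes the partner that stabilises ATG13. It was the member with the lowest log2 fold change. Its level was 31.7, 27.4 and 21.4 CPM in control replicates 1, 2 and 3 and 21.0, 22.0 and 18.3 CPM in the fluoxetine replicates. Control replicate 3 lay within the fluoxetine range. The log2 fold change was -0.39 (SE 0.15, 95% interval -0.71 to -0.07, edgeR adjusted p = 0.108). Without control replicate 3 it was -0.57 (edgeR adjusted p = 0.00487). With the length and GC trends removed it was -0.31 (edgeR adjusted p = 0.0179), and no filter on low counts gave -0.42 (edgeR adjusted p = 0.0125). An antisense gene, AC025259.1, shares 19.2% of the exonic bases of ATG101 and has no row in the table analysed here. How reads over both genes were counted is not given in the sources used here.

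UVRAG (ENSG00000198382, chromosome 11 from 75815167 to 76143195, plus strand) had the smallest p-value of the 10. Control replicates 1, 2 and 3 held 17.6, 20.6 and 21.6 CPM, and fluoxetine replicates 28.0, 30.2 and 30.4 CPM. The gap between the groups was wider than the spread within either. The means were 19.9 ± 2.08 CPM (SD, n = 3) and 29.5 ± 1.34 CPM (SD, n = 3), and the log2 fold change was 0.57 (SE 0.11, edgeR adjusted p = 0.00778), 1.48-fold with a 95% interval of 1.26 to 1.74. UVRAG was the member that stayed past the threshold with each library left out in turn, with log2 fold changes of 0.45 to 0.60 and adjusted p-values from edgeR of 0.00270 to 0.0493. It shares 240 exonic bases with UVRAG-DT on the other strand, which averaged 3.17 counts a library. A second antisense gene, AP002340.1, shares 138 and has no counts here. Over the 6 libraries, the tested genes whose log2 CPM followed UVRAG most closely were BTN3A1, FAM8A1 and MKRN1, with Pearson correlations of 0.998, 0.998 and 0.997. All these points share the treatment contrast and the libraries. Of these 3 genes, BTN3A1 passed, with a log2 fold change of 0.54 (edgeR adjusted p = 0.0194). FAM8A1 (0.30, edgeR adjusted p = 0.0624) and MKRN1 (0.13, edgeR adjusted p = 0.266) did not.

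ATG14 (ENSG00000126775, chromosome 14 from 55366392 to 55411858, minus strand) encodes the alternative subunit. It was measured at 18.6, 21.4 and 22.4 CPM in control cells and 25.9, 23.4 and 29.4 CPM with fluoxetine. The groups did not overlap, although the closest libraries were about 1 CPM apart. The log2 fold change was 0.33 (SE 0.12, 95% interval 0.07 to 0.60, edgeR adjusted p = 0.0891), and without control replicate 3 it was 0.36 (edgeR adjusted p = 0.0496). The log2 ratio of UVRAG to ATG14 counts within a library was -0.08, -0.05 and -0.05 in control libraries and 0.11, 0.37 and 0.05 in fluoxetine libraries. The ratio was higher in all fluoxetine libraries, by 0.24 in the mean, with p = 0.1 from the exact two-sided permutation test (0.2 after adjustment over both ratios), the smallest p that the design allows before adjustment.

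The catalytic and core subunits of the PI3-kinase complex did not pass either. PIK3C3 (ENSG00000078142, chromosome 18 from 41955206 to 42087830, plus strand) encodes VPS34, the lipid kinase itself. It was measured at 39.4, 39.2 and 42.5 CPM in control cells and 46.8, 46.4 and 53.7 CPM with fluoxetine, with no overlap. The log2 fold change was 0.28 (SE 0.09, 95% interval 0.07 to 0.48, edgeR adjusted p = 0.0723), 0.28 without control replicate 3 (edgeR adjusted p = 0.0499) and 0.06 with the length and GC trends removed (edgeR adjusted p = 0.628). PIK3R4 (ENSG00000196455, chromosome 3 from 130678935 to 130746829, minus strand) encodes VPS15, its regulatory subunit. The PIK3R4 level was 39.7 ± 3.57 CPM (SD, n = 3) and 45.3 ± 4.05 CPM (SD, n = 3), with overlapping groups and a log2 fold change of 0.19 (95% interval -0.04 to 0.42, edgeR adjusted p = 0.253).

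BECN1 (ENSG00000126581, chromosome 17 from 42810134 to 42833350, minus strand) encodes Beclin 1, the platform on which the complex assembles. Its level was 58.4, 57.4 and 58.3 CPM in control cells and 53.2, 57.4 and 55.1 CPM with fluoxetine. The groups overlapped and the log2 fold change was -0.07 (SE 0.08, edgeR adjusted p = 0.601). The 95% interval runs from 0.847-fold to 1.07-fold. BECN1 shares 300 exonic bases with PSME3 on the other strand, with on average 7361 counts a library and a log2 fold change of -0.23 (edgeR adjusted p = 0.0354), and 795 with CNTD1, with on average 15.5 counts.

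**Figure D2:**
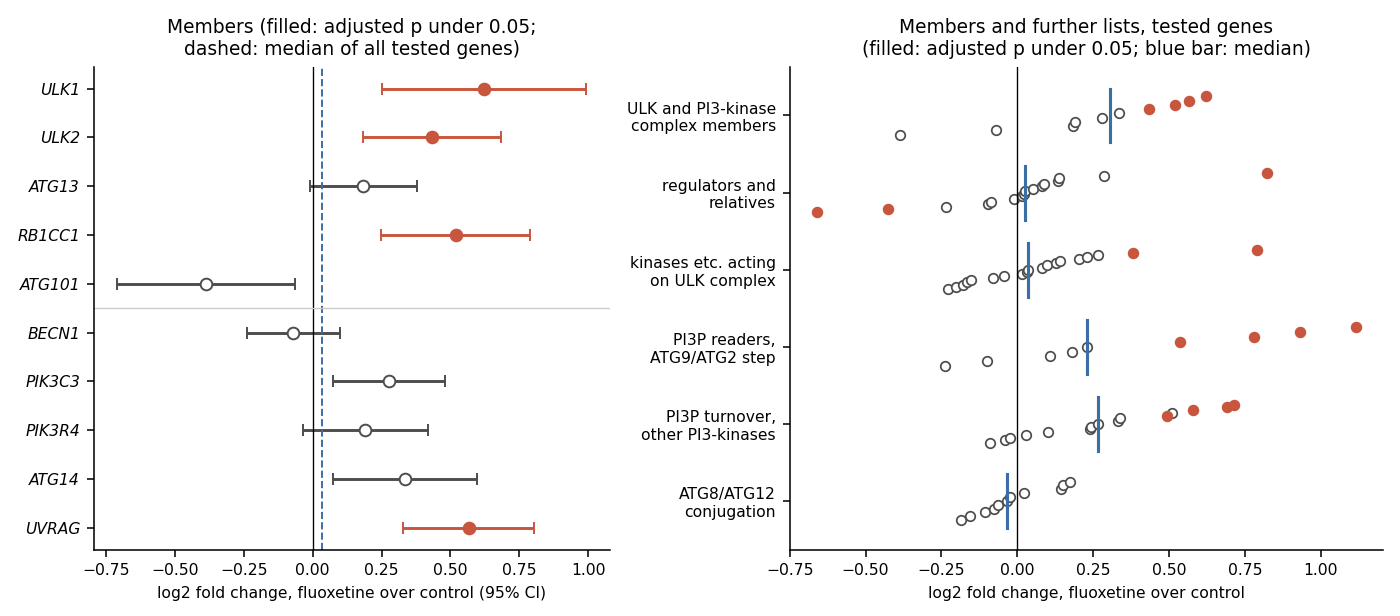
Left, log2 fold change (fluoxetine over control) of each gene with its 95% interval, filled where the adjusted p-value is under 0.05, with a dashed line at 0.03, the median of all tested genes. Right, the same for the tested genes of the 10-gene group and of 5 further lists, with blue bars at the medians (0.31 for the 10 genes and -0.04 for the conjugation list).

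Levels of different genes were compared per kilobase of annotated exon (RPKM). In control cells ULK1 was the most abundant at 10.9 ± 2.79 RPKM (SD, n = 3) and ULK2 the least at 1.42 ± 0.0989 RPKM (SD, n = 3). Behind ULK1 came BECN1 (9.04 RPKM), ATG101 (8.38 RPKM) and PIK3R4 (7.38 RPKM), and the ranges of neighbours among these 4 genes overlapped over libraries. Then came ATG13 (5.22 RPKM), RB1CC1 (4.49 RPKM), ATG14 (4.12 RPKM), UVRAG (3.14 RPKM) and PIK3C3 (2.66 RPKM), of which ATG14 and UVRAG were the neighbours without overlap, and ULK2 lay below all of them. After fluoxetine ULK1 (16.8 ± 1.97 RPKM, SD, n = 3) stood clear of all others, PIK3R4 and BECN1 (8.43 and 8.61 RPKM) overlapped, and RB1CC1 (6.45 RPKM) overlapped ATG101 (6.39 RPKM) and ATG13 (5.93 RPKM). The order depends on the length used. Per kilobase of the longest transcript, ATG101 led in control cells at 18.6 RPKM, ahead of ULK1 at 15.6 RPKM, while ULK2 remained the lowest at 2.32 RPKM.

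**Figure D3:**
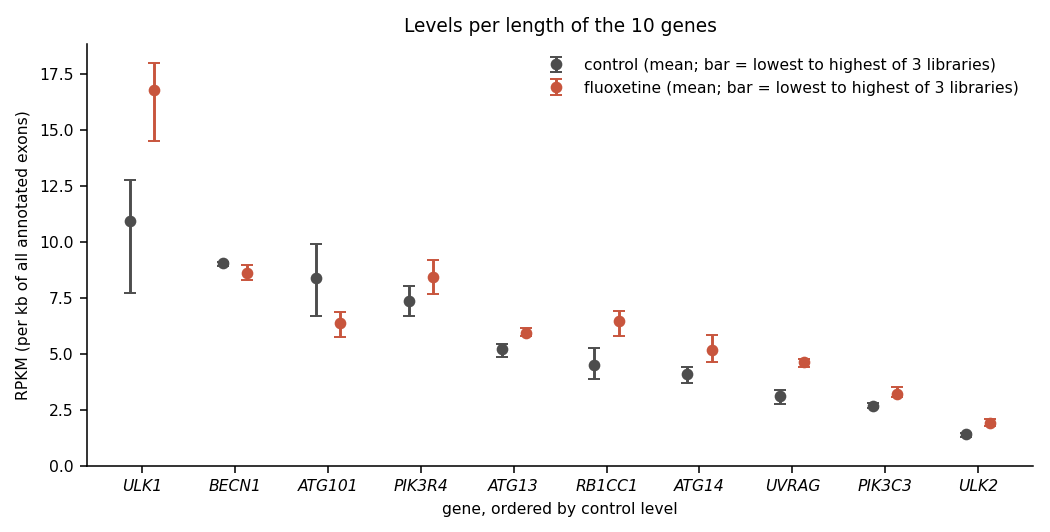
Mean level per length (RPKM, vertical axis from 0) of the 10 genes in control and fluoxetine libraries, ordered by control level, with bars from the lowest to the highest of 3 libraries. ULK1 moves from 10.9 to 16.8 RPKM and ULK2 stays lowest, at 1.42 and 1.91 RPKM.

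The libraries also differed in composition, by GC content and length of the transcripts. Across 15600 tested genes, the deviation of a library's log2 CPM from the mean of all 6 libraries had a Pearson correlation with the GC content of the gene's longest transcript of 0.275, 0.331 and -0.410 in control replicates 1, 2 and 3, and of -0.0786, 0.155 and -0.280 in the fluoxetine replicates. GC-rich transcripts thus read lower in both replicates numbered 3. The correlations with log2 transcript length were -0.156, -0.0514 and -0.0151 in control replicates 1, 2 and 3. In the fluoxetine replicates they were 0.102, 0.143 and -0.0047, each above every control library, so this trend ran with the treatment. The longest transcript of ATG101, at 1439 bases, is the shortest of the 10. The ULK1 transcript is 64.2% GC and that of ATG101 59.8%, the highest of the 10, and both genes were lowest in replicate 3 of each group. RB1CC1 and PIK3C3 have the lowest GC content, 37.6% and 38.3%, and both were highest in replicate 3 of each group. So were PIK3R4, ATG14 and UVRAG, at 43.9%, 44.6% and 46.9% GC, whereas BECN1 (45.2%) and ULK2 (46.4%) were not. ATG13, at 52.6% GC, was lowest in control replicate 3 (34.0 CPM) but highest in fluoxetine replicate 3 (43.0 CPM). The part of these trends in the fold changes was not tested beyond the refit that follows. After both trends were taken out of each library, ULK1 read 91.7, 84.5 and 73.3 CPM in control cells and 126, 127 and 119.9 CPM with fluoxetine, a log2 fold change of 0.58 (edgeR adjusted p = 6.43e-04). ULK1, ULK2, RB1CC1 and UVRAG were upregulated in that fit too, at log2 fold changes of 0.31 to 0.58. ATG101 was downregulated in it, and the median over the 10 genes was 0.18, beside -0.02 over all tested genes. That fit called more genes over all those tested, 1587 higher and 2325 lower, against 1214 and 833 before the trends were removed.

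**Figure D4:**
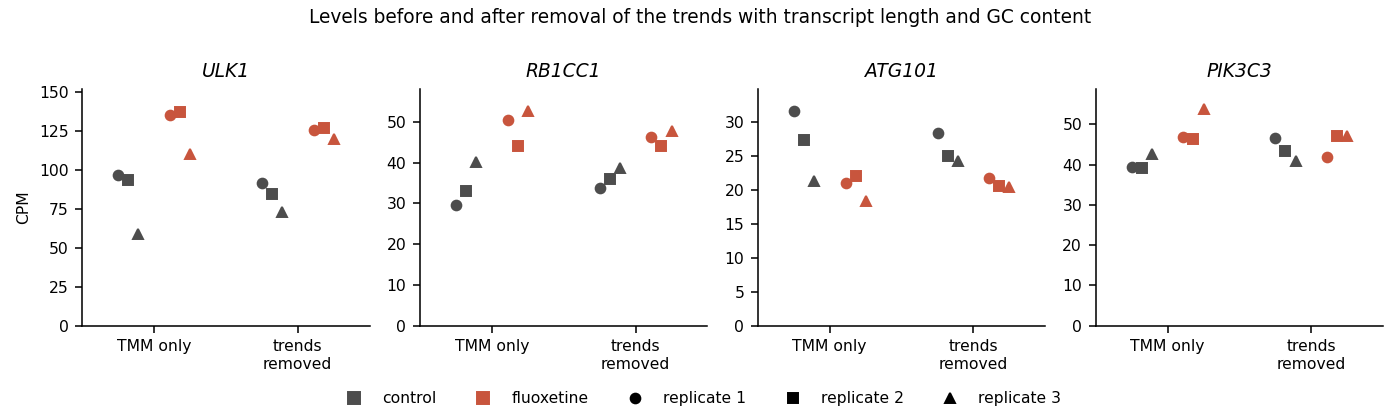
Levels in CPM (vertical axes, from 0) of 4 genes in each library, before and after removal of the trends with transcript length and GC content. The low ULK1 value of control replicate 3 moves from 58.6 to 73.3 CPM, the ATG101 groups separate, and the PIK3C3 groups come to overlap.

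The windows before the RefSeq transcription start hold few of the motifs searched. That start is not always the start in the gene coordinates given above. The ATG14 window overlaps its gene, which runs to 55411858, and the E-box named below lies in the overlap. The windows of BECN1 (chr17:42823880-42824129) and ATG101 (chr12:52069728-52069977) lie inside the gene. Those of ATG13 (chr11:46617303-46617552) and PIK3C3 (chr18:41954984-41955233) run past the start of the gene, so they overlap it in part. RefSeq (GRCh38.p14) gave 250 bases upstream of the start for 8 of the 10 genes, all but RB1CC1 and UVRAG. Both strands were searched for the E-box CACGTG and its longer form TCACGTGA, which contains it (bound by TFEB and other factors), for GTAAACA (FOXO factors), TGATGNAA (ATF4 composite element) and TCACNCCAC (sterol element). The 1 match was an E-box in ATG14, at position -21 from the start, and 6.34% of all 35116 windows hold an E-box. The other shares were 0.854%, 2.98%, 3.14% and 0.883% of windows, with 0 of these 8 genes each. The ATG14 window (chr14:55411831-55412080, minus strand) is shown with the E-box in capitals. Those of the paralogous kinases ULK1 (chr12:131894372-131894621, plus strand) and ULK2 (chr17:19867937-19868186, minus strand), both upregulated, are shown for their GC content of 78.0% and 76.0%, against 62.0% in ATG14, and have no capitals.
ATG14: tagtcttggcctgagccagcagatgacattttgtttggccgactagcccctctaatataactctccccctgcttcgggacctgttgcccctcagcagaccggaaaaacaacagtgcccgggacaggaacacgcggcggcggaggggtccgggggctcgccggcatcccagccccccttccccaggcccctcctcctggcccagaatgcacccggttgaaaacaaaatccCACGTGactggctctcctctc
ULK1: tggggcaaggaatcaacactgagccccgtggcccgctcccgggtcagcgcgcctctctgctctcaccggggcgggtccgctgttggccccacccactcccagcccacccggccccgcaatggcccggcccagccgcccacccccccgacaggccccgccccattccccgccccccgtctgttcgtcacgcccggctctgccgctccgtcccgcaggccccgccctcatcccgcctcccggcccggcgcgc
ULK2: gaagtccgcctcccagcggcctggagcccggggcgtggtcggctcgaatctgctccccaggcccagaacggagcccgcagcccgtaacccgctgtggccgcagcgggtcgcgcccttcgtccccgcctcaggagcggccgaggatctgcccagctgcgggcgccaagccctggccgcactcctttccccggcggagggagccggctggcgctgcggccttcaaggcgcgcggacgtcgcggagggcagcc

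Proteins that bind or modify the PI3-kinase complex, with further ULK relatives, gave 16 tested genes of 19 listed. Of them 1 was upregulated and 2 were downregulated, 18.8% against 13.1% of all tested genes, and the median log2 fold change was 0.02. BCL2L1 encodes BCL-XL, which binds Beclin 1 and restrains it. It went from 31.6 ± 2.35 to 19.9 ± 1.93 CPM (SD, n = 3), with no overlap and a log2 fold change of -0.66 (SE 0.11, edgeR adjusted p = 0.00377). DAPK1, a kinase that phosphorylates Beclin 1, rose from 6.72 ± 1.14 to 11.8 ± 0.111 CPM (SD, n = 3), for a log2 fold change of 0.82 (edgeR adjusted p = 0.00505). HMGB1, a chromatin protein that can also bind Beclin 1, had a log2 fold change of -0.43 (edgeR adjusted p = 0.00653), and its count is uncertain because the genome holds many processed copies of it. BCL2, the better known partner of Beclin 1, was at 25.1 ± 2.55 and 24.9 ± 0.774 CPM (SD, n = 3), and the kinase relatives ULK3 and ULK4 had log2 fold changes of 0.05 and -0.24 (edgeR adjusted p of 0.758 and 0.467).

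Among kinases, phosphatases and ubiquitin ligases that act on the ULK complex, 19 genes were tested, 2 were upregulated and 0 downregulated, 10.5% in all, which is close to the background. PRKAA2, a catalytic subunit of AMPK, rose from 82.0 ± 14.0 to 142 ± 13.6 CPM (SD, n = 3), for a log2 fold change of 0.79 (SE 0.12, edgeR adjusted p = 0.00273). Its counterpart PRKAA1 had a log2 fold change of 0.03 (edgeR adjusted p = 0.872). NEDD4L, a ubiquitin ligase that targets ULK1, was at the threshold, with a log2 fold change of 0.38 (edgeR adjusted p = 0.0498). The count of upregulated genes was 1 in each fit that left out a single library other than control replicate 3. Without control replicate 3 it was 2, and 3 genes of this list were lower.

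PI3P readers bind PI3P once it is made, and they were listed together with ATG9 and ATG2 proteins. Of 9 tested genes of this list, 4 were upregulated and 0 downregulated, 44.4% against 13.1% of all tested genes, with a median log2 fold change of 0.23. WIPI1, a PI3P-binding protein of the nascent autophagosome, rose from 14.3 ± 1.21 to 27.3 ± 2.66 CPM (SD, n = 3), for a log2 fold change of 0.93 (edgeR adjusted p = 7.73e-04). ZFYVE1, which binds PI3P on the ER, had a log2 fold change of 1.12, the lipid transfer protein gene ATG2B of 0.78 and TMEM41B, a lipid scramblase of the ER, of 0.54. The count of 4 held in each fit that left out 1 library. ATG9A and WIPI2 had log2 fold changes of -0.10 and 0.11 (edgeR adjusted p of 0.445 and 0.434).

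Genes of PI3P turnover and of other endomembrane PI3-kinases gave 4 upregulated and 0 downregulated of 15 tested, 26.7% against 13.1% of all tested genes, with a median of 0.27. They were PIK3C2A, a class II PI3-kinase (log2 fold change 0.71), PIKFYVE, the kinase that converts PI3P (0.69), FIG4, its partner phosphatase (0.58), and MTMR14, a PI3P phosphatase (0.49), with adjusted p-values from edgeR of 0.00891 to 0.0190. The count was 0 without fluoxetine replicate 1, 1 without control replicate 2 and 2 without fluoxetine replicate 3. For the 11 ATG8 and ATG12 conjugation genes 0 passed in either direction, also at an unadjusted p-value under 0.05 (0 genes) with edgeR, where the shares over all tested genes were 13.1% and 28.7%, with log2 fold changes between -0.19 and 0.17 and a median of -0.04. With the length and GC trends removed 1 of them was lower. Differences between these lists were not tested.

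**Figure D5:**
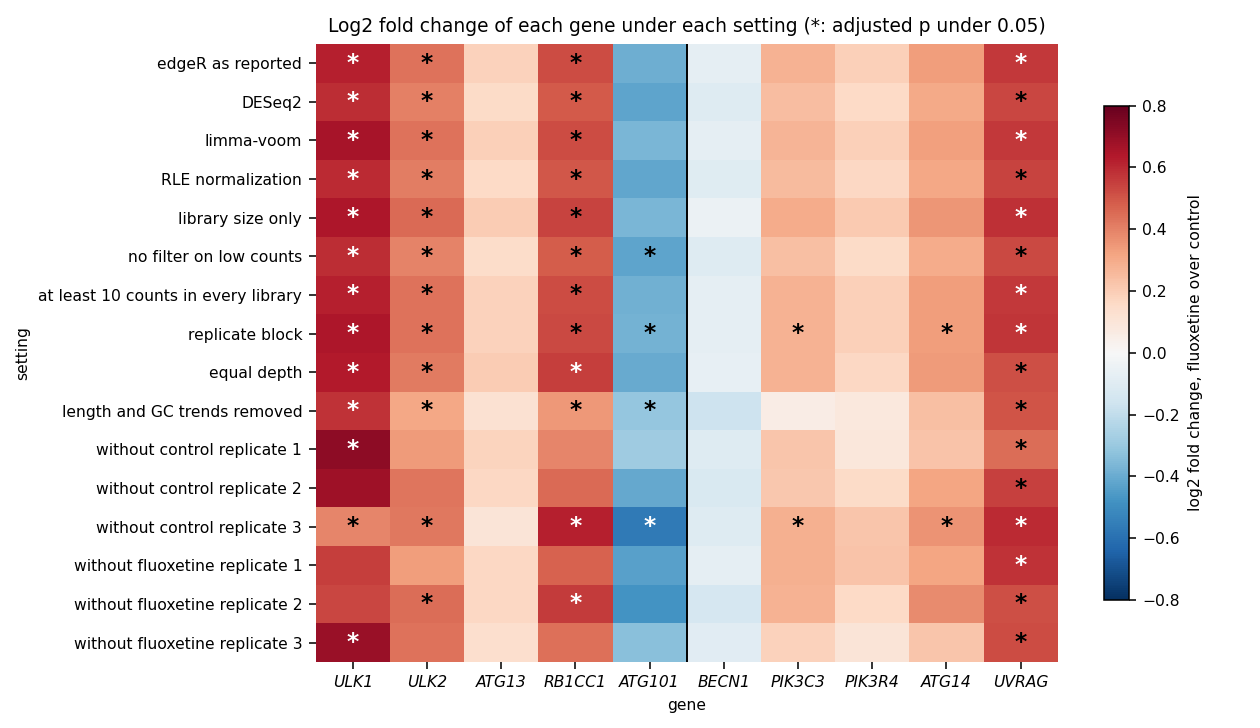
Log2 fold change (colour, fluoxetine over control) of each gene under each setting, with an asterisk where the adjusted p-value is under 0.05. The columns of ULK1, ULK2, RB1CC1 and UVRAG carry asterisks in all 10 fits to the 6 libraries, UVRAG also in each fit without 1 library, and ATG13, BECN1 and PIK3R4 in none.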

How the data were processed

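RNA of H460 cells was sequenced as paired-end reads at a genomics centre. The submitters' processing notes name fastp 0.20.0, HISAT2 2.1.0, HTSeq 0.10.0 and DESeq2 1.18.1, without settings, and whether counting used strand is not given in the sources used here. The authors deposited raw counts of reads per gene in each library, not normalized or pooled. Columns with log2 fold changes and p-values (raw and adjusted) of the authors' own comparison, in that table, were not used. The start and end coordinates of the 10 genes match GENCODE release 29 (GRCh38).

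In R 4.3.3, edgeR 4.0.16 was run on the counts (glmQLFit, glmQLFTest, TMM, filterByExpr, no covariate), two-sided, with Benjamini-Hochberg adjustment over 15646 genes. Intervals are 95%. CPM are after TMM normalization, and SDs are over 3 libraries. Replicates were matched to columns by title. Log2 CPM had a prior count of 2. Alternatives were DESeq2 1.42.0, limma-voom (limma 3.58.1), RLE or no scaling, no filter, at least 10 counts per library, a replicate block, thinning to 16157507 counts and leaving out each library. Removal of length and GC trends (spline offsets per library, values for 99.71% of tested genes) was added after the data were seen. The scripts were tested on simulated data.

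The members and lists were chosen with earlier results of these data known. Genes named are the 10 members, the called genes of each further list (at most 4, ranked on p), overlapping genes, the 3 genes most like the member of smallest p-value, and markers. Other list genes (BCL2, ULK3, ULK4, PRKAA1, ATG9A, WIPI2) were named after their values were seen. BECN2, PRKAG3, SFTPB, SCGB1A1, CD3E and CDH5 have no row.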

Additional observations from a re-analysis of the deposited data

How the results depend on the processing

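Over the 9 alternatives that kept all libraries, 85 of 90 values of the 10 genes kept their direction and side of the threshold, 5 newly passed it and 0 were lost or reversed. Leaving out 1 library kept 46 of 60, lost 11 and added 3. Those fits have fewer samples. Newly past the threshold were ATG101 at -0.42 with no filter, -0.38 with the replicate block and -0.31 with the length and GC trends removed, and ATG14 (0.34) and PIK3C3 (0.28) with the block. So 1 gene was downregulated in these 3 fits, and the median of the 10 was 0.18 with the trends removed. Same-numbered libraries had correlated deviations of 0.0297, 0.116 and 0.392. Control replicates 2 and 3 correlated best with the fluoxetine replicate of the same number, but control replicate 1 with fluoxetine replicate 2 (0.320). The numbers were therefore not taken to pair the samples. With the replicate block 6 of the 10 genes were higher, and calls over all genes were 2231 higher and 1787 lower. Genes lower numbered 1516 with no filter and 2325 with the trends removed. Genes lower by at least 2-fold numbered 23, and 13 with DESeq2, 47 with no filter, 11 with at least 10 counts in every library and 42 with the block. Of the PI3P reader, ATG9 and ATG2 list, 1 gene was lower with DESeq2, RLE, no filter, the block or the trends removed. The PI3P turnover list had 7 higher with the block. The list acting on the ULK complex had 1 higher with DESeq2, limma-voom, RLE, no filter or equal depth, and 2 lower with the trends removed, which also gave 1 lower conjugation gene. The cause was not tested.

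Leaving out each library in turn gave log2 fold changes of 0.39 to 0.72 for ULK1, 0.34 to 0.44 for ULK2, 0.39 to 0.62 for RB1CC1, 0.22 to 0.38 for ATG14, 0.18 to 0.28 for PIK3C3 and -0.57 to -0.28 for ATG101, and a median over the 10 of 0.20 to 0.33. Of the 10, 1 to 6 were higher and 0 to 1 lower. Over all genes 409 to 1627 were higher and 163 to 2006 lower, 9 to 64 of them by at least 2-fold. Called higher were 0 to 4 PI3P turnover genes, 1 to 2 regulators and 1 to 2 genes acting on the ULK complex. Lower were 0 to 3 of the last list and 0 to 1 of the PI3P reader list. The ULK2 to ULK1 difference ran from -0.40 to 0.040, the latter without control replicate 3. The lowest count of any of the 10 genes in a library was 281, and counting error was not separated from the spread between libraries.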
